A study of Mus musculus with 2 samples.

Results

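The genes described here carry sugars, monocarboxylates, inorganic ions and zinc across membranes. They were chosen by symbol alone, from 10 solute carrier (Slc) families: Slc2a, Slc5a, Slc16a, Slc4a, Slc9a, Slc12a, Slc8a, Slc24a, Slc30a and Slc39a. The rule took 99 of the 22296 gene symbols named by the array's annotation, with 1920 probe sets. By its wording it also took 3 genes that are not transporters: Slc4a1ap, an adaptor of the anion exchanger Slc4a1, and Slc9a3r1 and Slc9a3r2, scaffolds that bind the sodium-proton exchanger Slc9a3.

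The samples are hypothalamic neurons that express agouti-related peptide (AgRP), collected by fluorescence-activated sorting from mice of mixed background, and each was measured on 1 exon-level array. One array holds cells with a FoxO1 KO and the other holds cells with a FoxO1 heterozygous KO, so the control also lacks 1 copy of this transcription factor. Mice were littermates matched for age and sex. The sources used here do not give their age, the number of mice behind an array, any pooling or the driver of the deletion. With 1 array per genotype nothing can be tested, and every value below compares these 2 arrays, not the genotypes.

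Values are on the log2 scale, and each difference is KO minus heterozygous KO. A probe set, a small group of probes within a gene, entered the analysis if it averaged at least 5.86 over the arrays, the median over all probe sets. A gene's level on an array and its difference are medians over such probe sets, each taken on its own, so a difference can depart from the gap between the levels. A probe set dim on 1 array, that is below 5.86 there, could enter through the other array alone. This favours a difference toward the brighter array. The SD beside a difference is over probe sets of 1 gene and says nothing of the spread between mice. At least 3 probe sets were asked of a gene, which 97 of the 99 members had. A gene past the 2-fold rule has a difference of at least 1 in size and at least 75% of its probe sets on that side.

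Neurons run on glucose and on lactate from glia. Glucose enters through facilitative carriers of the Slc2a family, and lactate, pyruvate and ketone bodies cross with a proton through Slc16a carriers. The chloride gradient that decides how a neuron answers GABA is set by Slc12a5, which takes chloride out, and Slc12a2, which brings it in. Calcium that enters during firing leaves through sodium-calcium exchangers of Slc8a and Slc24a. Bicarbonate carriers and sodium-proton exchangers of Slc4a and Slc9a hold pH, and Slc30a and Slc39a carriers move zinc out of and into the cytosol. AgRP neurons respond to glucose, insulin and leptin.

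As checks of the samples, Foxo1 stood at 7.46 in the KO sample and 7.98 in the heterozygous sample (difference -0.48, SD 0.53, lower in 8 of 8 probe sets). Where its probe sets fall relative to the deletion could not be checked. Agrp stood at 12.44 and 11.97 (difference 0.27, higher in 6 of 7 probe sets). Npy stood at 12.19 and 12.31, yet its difference was 0.14, higher in 4 of 6 probe sets. Of 13 genes of AgRP neuron identity, 5 were below 0, with a median difference of 0.14. Markers of other cells differed between the arrays as well. All 12 evaluated oligodendrocyte precursor genes were below 0 (median difference -0.75), as were all 12 mature oligodendrocyte genes (-1.07). All 12 endothelial and pericyte genes were below 0 too (-0.25). The medians of levels in the KO and heterozygous samples were 6.93 and 8.13 for precursor genes and 7.13 and 8.95 for mature ones. They were 6.79 and 7.29 for endothelial and pericyte genes and 8.65 and 8.95 for AgRP neuron genes. For the AgRP neuron genes these medians point the other way from the median difference of 0.14, with 8 of 13 genes above 0. Each median is taken on its own and can fall on a different gene. Of 10 markers of excitatory hypothalamic neurons, 7 were below 0 and 3 above (median difference -0.36), from Slc17a6, a vesicular glutamate transporter, at 5.40 and 9.11 to the neuropeptide gene Cartpt at 9.67 and 8.97. Of 2 evaluated erythroid genes both were above 0, with Hbb-b1 past 2-fold at 1.05. Of 10 pan-neuronal genes, 9 were below 0, with a median difference of -0.16, and of 12 astrocyte genes 9, with a median of -0.20 and the highest, Gfap, at 0.66. In a bulk sample fewer cells of a type and less RNA per cell cannot be told apart.

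Most of the transporter genes differed little. The median over 97 genes was -0.12, with quartiles at -0.32 and 0.02, beside a median of -0.11 over all 16639 evaluated genes (quartiles -0.29 and 0.09) and -0.10 over 236 other evaluated Slc genes. Since the median gene lay at -0.11, a transporter at that value stood in the middle of the array. Of the 97 genes, 69 were below 0, or 71.1% against 65.2% of all genes, and 50 were below -0.11. A difference of at least 0.5 in size was seen in 14 members, or 14.4%, and in 15.3% of all genes.

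Past the 2-fold rule, 1 member was higher on the KO array, the orphan monocarboxylate carrier Slc16a4, against a background of 1.13% of all evaluated genes. Lower were 2 members, the neuronal chloride extruder Slc12a5 and the potassium-dependent sodium-calcium exchanger Slc24a3, against a background of 1.12%. At a 1.5-fold rule 2 members were higher (Slc16a4 and the zinc carrier Slc30a7; background 3.28%). At this size 8 were lower (background 4.9%), or 8.25% of the members: Slc12a5, Slc12a2, Slc24a3, Slc24a2, Slc8a2, Slc2a13, Slc2a1 and Slc16a5. Counted by agreement of at least 75% of probe sets and with no rule on size, 6 members were higher and 20 lower, where the background was 9.56% and 23.3%. As shares of 97, the counts by agreement are 6.19% and 20.6%, both below their background, while the lower counts at 2-fold (2.06%) and at 1.5-fold (8.25%) are above theirs, on few genes and with no test. Among the 236 other Slc genes 1 was higher past the 2-fold rule and 3 were lower, Slc17a6 among them.

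**Figure D1:**
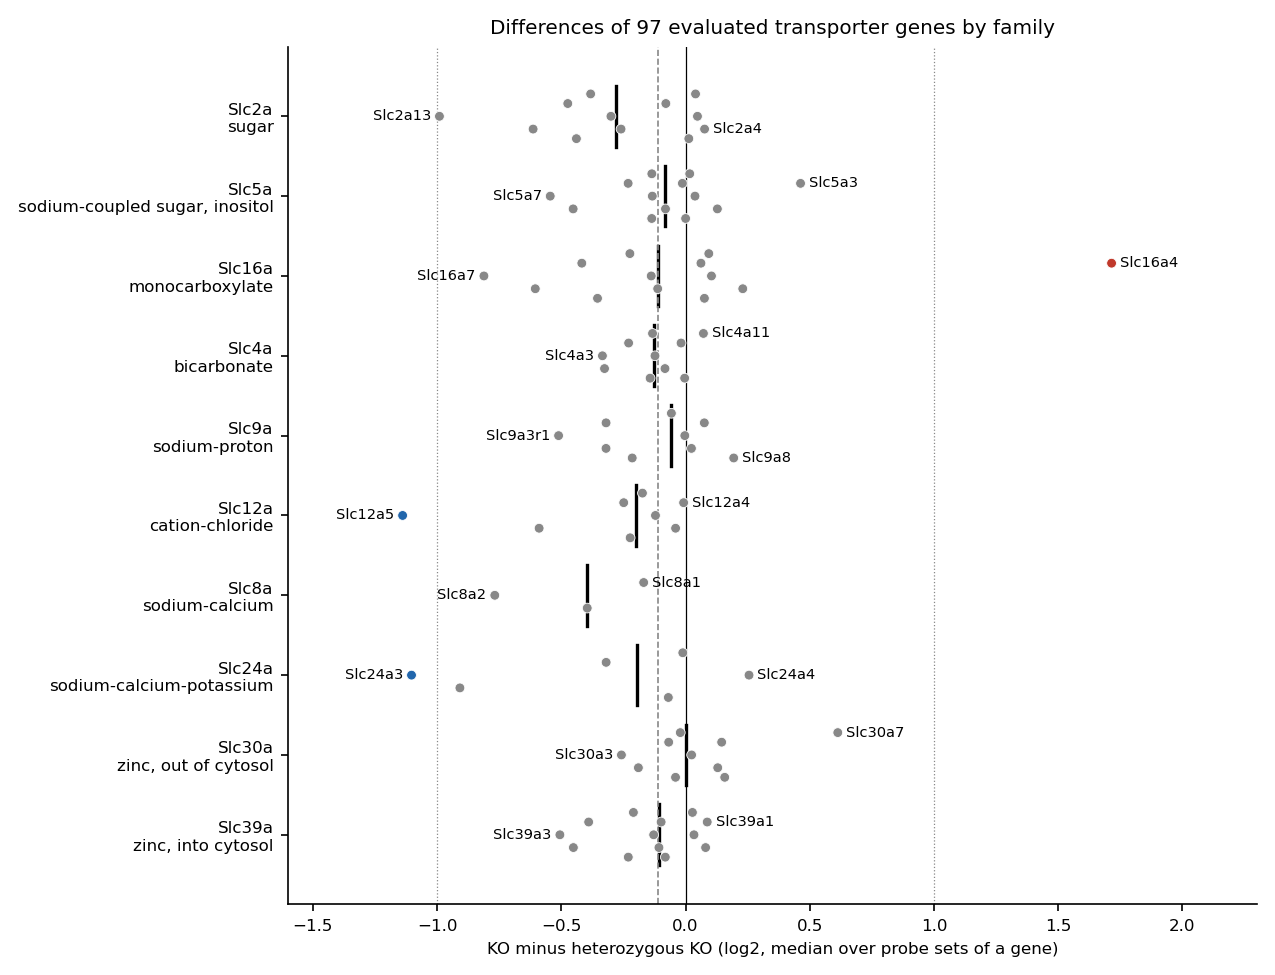
Each point is 1 evaluated gene, placed by its difference between the FoxO1 KO and the heterozygous array (log2), in 1 row per family; the black bar is the family median, the dashed line the median of all genes at -0.11, and dotted lines mark 2-fold. Blue points (Slc12a5, Slc24a3) are lower and the red point (Slc16a4) higher past the 2-fold rule, and the lowest and highest gene of each family are named.

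To show where these 3 genes begin, the 150 bases before the first start listed by RefSeq (build GRCm38.p6) are printed 5′ to 3′ on the gene's own strand. Slc12a5 lies at chr2:164960696-164960845 (+), Slc24a3 at chr2:145167625-145167774 (+) and Slc16a4 at chr3:107291080-107291229 (+).
Slc12a5: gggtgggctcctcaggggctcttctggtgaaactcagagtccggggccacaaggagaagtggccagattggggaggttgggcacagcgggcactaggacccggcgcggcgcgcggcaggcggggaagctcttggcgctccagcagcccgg
Slc24a3: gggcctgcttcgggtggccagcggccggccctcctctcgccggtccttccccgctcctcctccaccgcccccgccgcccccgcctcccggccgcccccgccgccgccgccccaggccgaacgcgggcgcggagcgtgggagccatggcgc
Slc16a4: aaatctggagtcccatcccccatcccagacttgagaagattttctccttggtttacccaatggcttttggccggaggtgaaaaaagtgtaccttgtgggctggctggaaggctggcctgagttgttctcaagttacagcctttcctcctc

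The stretch of Slc24a3 is 84% G and C, that of Slc12a5 70% and that of Slc16a4 50.7%. The FoxO recognition motif, spelled GTAAACA on one strand and TGTTTAC on the other, was searched on both strands in the 250 bases before each listed start. It is in none of the windows of these 3 genes. Windows were available for 78 of the 99 members, and the others were not searched. Of the 95 windows of these 78 members, 2 hold the motif, or 2.11%, and so do 3.17% of all 32851 windows. Those 2 belong to Slc12a1, the kidney sodium-potassium-chloride cotransporter, and Slc5a6, a carrier of biotin and pantothenate. Their 70 bases are printed with the motif in capitals, at chr2:125152350-125152419 (+) and chr5:31048260-31048329 (-). The Slc5a6 stretch precedes a later one of its 2 listed starts and lies inside the gene, which spans chr5:31036036-31048924.
Slc12a1: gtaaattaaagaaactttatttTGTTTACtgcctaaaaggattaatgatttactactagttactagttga
Slc5a6: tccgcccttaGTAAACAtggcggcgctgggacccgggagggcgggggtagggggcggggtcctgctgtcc

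Both genes lay near 0. Slc12a1 was at -0.04 (SD 0.41 over 11 probe sets) and Slc5a6 at -6.5e-05 (SD 0.73, with 14 of 28 probe sets on each side). A match of letters is a description of the window and not a bound site.

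Sugar carriers of the Slc2a family had a median of -0.28 and none past the 2-fold rule. Of 12 genes, 8 were below 0, a share near that of all genes, and 7 were below -0.11. The family median stayed below 0 in each alternative processing, from -0.29 to -0.17. Slc2a1, the glucose carrier of brain capillaries and glia, stood at 8.33 in the KO sample and 9.06 in the heterozygous sample, a difference of -0.61 (SD 0.90). It was lower in 8 of 10 probe sets, the largest at 6.27 against 8.45, and 1 probe set went the other way by 0.96. Slc2a3, the carrier with high affinity that neurons use, stood at 8.19 and 8.03 and its 14 probe sets were divided evenly, 7 higher and 7 lower (difference 0.04, SD 0.80). Slc2a4, which insulin moves to the cell surface in muscle and fat, stood at 6.82 and 6.83 (0.08, SD 0.37). Slc2a13 carries myo-inositol with a proton in brain and had the lowest value of the family. Its level was 7.04 against 7.82, and the difference of -0.99 (SD 0.75) missed the 2-fold rule by 0.01, with 8 of 10 probe sets lower. These 8 ran from -2.43 to -0.65, and the other 2 were at 0.08 and 0.10, so the bulk of its probe sets lay apart from 0. The 2 lowest, at 5.33 against 7.76 and 5.58 against 7.04, were dim on the KO array. They reached the floor through the heterozygous array alone, which favours a lower value.

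Among the other Slc2a genes the fructose carrier Slc2a5 was at -0.44, with 9 of 11 probe sets lower. Of these 11, 3 were dim on the KO array, which favours a lower value. The urate carrier Slc2a9 was at -0.38 and the intracellular carrier Slc2a8 at -0.26 (11 of 12 lower). Slc2a10 was at -0.47 on 3 probe sets. Slc2a12 stood at -0.30 and Slc2a6 at -0.08. Slc2a2, the low-affinity carrier of liver and islets, was at 0.05 and Slc2a7 at 0.01. All 12 endothelial and pericyte markers were below 0 beside Slc2a1, from Cdh5 at -0.77 to Pecam1 at -0.05, and the part of vessel cells in its value was not tested. Of 9 evaluated partners in sugar handling, from hexokinases to Tbc1d1, 6 were below 0 and none passed the 2-fold rule (median -0.09). Hk1, the hexokinase of brain, was lowest at -0.54.

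Sodium-coupled carriers of the Slc5a family lay around the median gene, with a family median of -0.08 and 6 of 13 members below -0.11. Their median changes sign with centring, to 0.03. Of 6 sugar carriers, 5 were below 0, Slc5a9 at -0.14 among them. The 6 ran from Slc5a10 at -0.45 to Slc5a1, the glucose carrier of the gut, at 0.13. Slc5a10 was lower in 7 of 7 probe sets, 1 of them dim on the KO array. Slc5a3, the sodium-coupled myo-inositol carrier that cells use to hold their volume, was the highest of the family. It stood at 9.97 in the KO sample and 9.57 in the heterozygous sample, a difference of 0.46 (SD 0.71), higher in 15 of 18 probe sets and between 0.45 and 0.57 in each of 8 alternatives. In RefSeq Slc5a3 and Mrps6, a mitochondrial ribosomal protein gene, overlap on 1 chromosome, 2 probe sets that carry both symbols were not used, and Mrps6 itself was at 0.46 (4 of 4 probe sets higher). Whether their signals are separate was not tested. The proton-coupled inositol carrier Slc2a13 and the sodium-coupled one thus had differences of opposite sign. Slc5a11, a second sodium-coupled inositol carrier, was at 0.02.

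Slc5a7, the choline carrier of cholinergic neurons, had the lowest value of the family at -0.54, but 3 of its 7 probe sets were higher and over all 14 probe sets it stood at -0.14. The monocarboxylate carriers Slc5a8 and Slc5a12 were at 0.04 and -0.14, the iodide carrier Slc5a5 at -0.01 and the kidney glucose carrier Slc5a2 at -0.08. Slc5a4a and Slc5a4b, at -0.23 and -0.13, are close copies. The 1 probe set that names both was not used, and whether the others read both copies was not tested.

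Monocarboxylate carriers of the Slc16a family had both the highest member of the whole set and one of the lowest, around a median of -0.11 that equalled that of all genes. Slc16a4 stood at 7.44 in the KO sample and 6.03 in the heterozygous sample, a difference of 1.71 (3.28-fold, SD 1.24). Its 5 probe sets above the floor had KO values of 8.77, 8.16, 7.37, 7.44 and 6.75 against heterozygous values of 6.03, 5.71, 5.65, 6.83 and 6.96. Of these 5, 2 were dim on the heterozygous array and reached the floor through the KO array alone, which favours a higher value. The other 9 probe sets lay under the floor and went mostly the other way, the lowest at 4.29 against 6.46. Over all 14 probe sets 7 were higher and 7 lower, and the difference was 0.12, so the call on this gene rests on where the floor is set.

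Of the proton-coupled lactate carriers, Slc16a1, found in vessels, glia and many other cells, stood at 7.32 in the KO sample and 7.13 in the heterozygous sample (0.10, SD 0.84, 5 of 8 probe sets higher), and its sign changes between alternatives, from -0.16 to 0.21. Slc16a3, the low-affinity carrier of astrocytes, stood at 8.13 and 8.34 (0.08, SD 0.26) on 3 probe sets. Slc16a7, the high-affinity carrier of neurons, stood at 6.33 and 7.29, a difference of -0.81 with an SD of 2.22. Its probe sets disagreed more than those of the other carriers named here. The extremes were 3.72 against 9.14, a gap of -5.43, and 9.26 against 6.21, a gap of 3.05, while a bright probe set at 9.15 and 9.45 hardly differed. With 7 of 10 lower, Slc16a7 fell short of the 75% agreement, and 5 of the 10 were dim on the KO array. Slc16a8, the carrier of the retinal pigment epithelium, was at -0.22.

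Slc16a11, a carrier of pyruvate, was at -0.42 (SD 1.55), with levels of 6.61 and 8.36 and 6 of 10 probe sets lower. A pair of its probe sets stood at 5.61 against 9.58 and 5.43 against 9.02, and the brightest on the KO array at 9.16 against 8.95. Of the 10, 3 were dim on the KO array, this pair among them, and 1 on the heterozygous array. Remaining Slc16a genes ran from Slc16a5 at -0.61 (3 of 4 probe sets lower) to Slc16a6 at 0.23 (8 of 10 higher). Dim probe sets were 1 of 4 for Slc16a5, on the KO array, and 3 of 10 for Slc16a6, on the heterozygous array. Between Slc16a5 and Slc16a6 were Slc16a12 at -0.35, the aromatic amino acid carrier Slc16a10 at -0.14, Slc16a13 at -0.11, Slc16a9 at 0.06 and Slc16a14 at 0.09. Of the glycoproteins that escort these carriers to the surface, 2 had opposite values. Embigin (Emb) stood at 9.01 and 8.11, a difference of 0.87 (SD 0.90) with 13 of 13 probe sets higher, short of the 2-fold size. Basigin (Bsg) stood at 10.14 and 10.78, a difference of -0.29 with 13 of 14 probe sets lower. Neuroplastin (Nptn), a further listed partner, was at -0.01, with 8 of 17 probe sets higher and 9 lower. Over the list of monocarboxylate and proton partners, which also holds lactate dehydrogenases and carbonic anhydrases, 9 of 10 evaluated genes were below 0, 6 were below -0.11 and none passed the 2-fold rule. The list median of -0.13 was close to that of all genes.

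**Figure D2:**
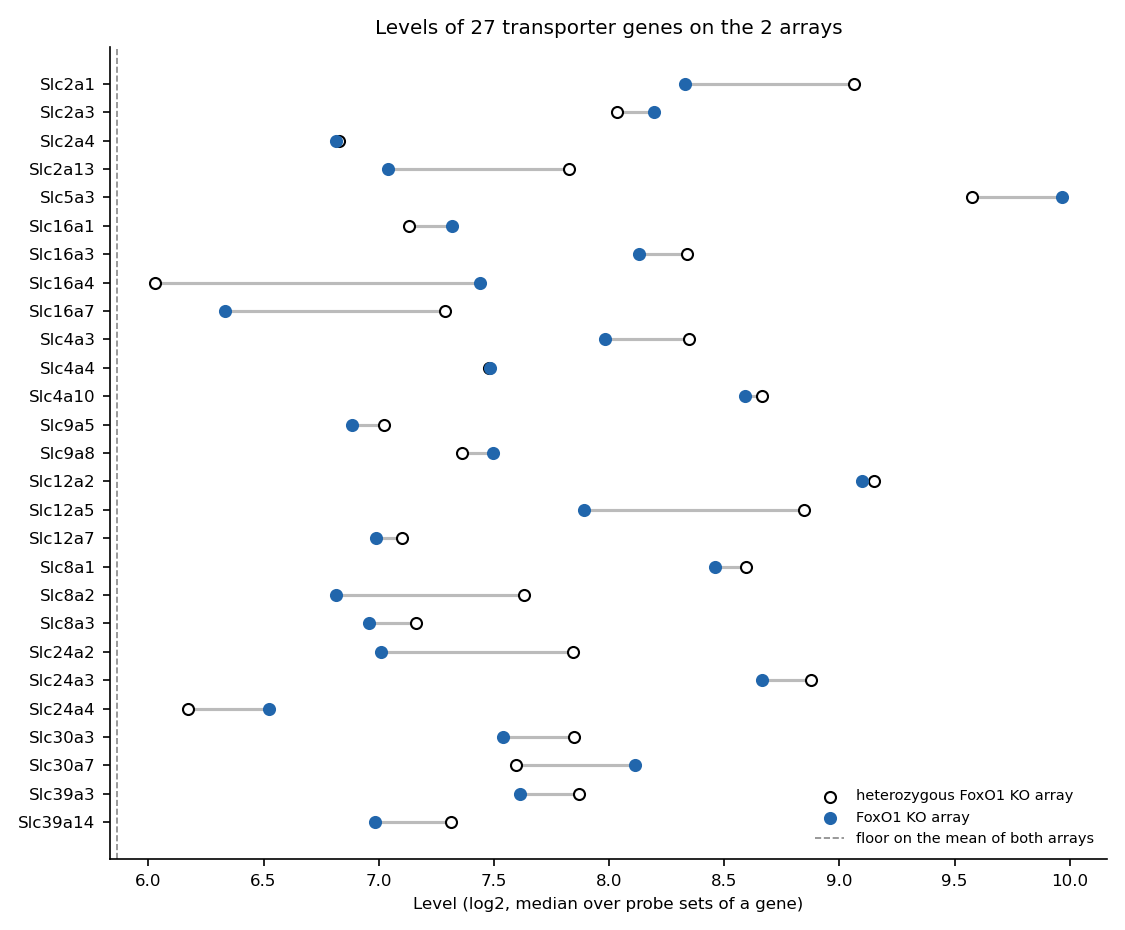
Levels (log2, median over the probe sets of a gene) of 27 transporter genes on the FoxO1 KO array (blue) and the heterozygous array (open), joined by a line; the dashed line is the floor at 5.86. Slc16a4 has the widest gap with the KO array on the right (7.44 against 6.03), while Slc12a5 (7.89 against 8.85) and Slc16a7 (6.33 against 7.29) lie lower on the KO array.

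Chloride cotransporters of the Slc12a family were below 0 in 8 of 8 genes, with 6 of 8 below -0.11 and a median of -0.20 that stayed below 0 in each alternative (-0.23 to -0.09). Slc12a5 makes GABA inhibitory by keeping chloride low in mature neurons. Its level was 7.89 in the KO sample and 8.85 in the heterozygous sample, and its difference was -1.14 (2.20-fold lower, SD 0.98). Lower values were seen in 26 of 29 probe sets, and 16 of these were at least 2-fold lower. Of the 29, 2 were dim on the KO array. The widest gap was -3.28, in a probe set at 6.72 in the KO sample, followed by 7.16 against 9.77 and 7.72 against 9.98. At the other end, a probe set at 10.07 and 10.10 differed by -0.03 and the 3 higher ones by 0.30, 0.43 and 0.86. Bright probe sets were thus found both among the strongest differences and among the smallest. With the floor raised to the 75th percentile the gene stood at -0.89 over 24 probe sets and was not past the rule, and with no floor it kept -1.14.

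Slc12a2, which loads chloride into immature neurons, glia and oligodendrocyte precursors, was at -0.59 (SD 0.95), lower in 24 of 31 probe sets. Its levels, 9.10 and 9.15, nearly coincide because the medians fall on different probe sets. Probe sets ran from -1.72 to 2.65, with 6 at least 2-fold lower and 4 at least 2-fold higher. Both the carrier that imports chloride and the neuronal one that extrudes it thus stood below the median gene. Other potassium-chloride carriers differed less, Slc12a7 at -0.22 (20 of 29 lower) and Slc12a4 at -0.01 (12 of 23 lower), the latter of either sign between alternatives. The kidney cotransporter Slc12a3 was at -0.12, Slc12a8 at -0.17 and Slc12a9 at -0.25 with an SD of 1.23.

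Kinases and partners that switch these cotransporters gave no common direction, with 4 of 8 evaluated genes below 0, a median of -0.15 and none past the rule. Wnk3, a kinase that senses chloride, was lowest at -0.94, and Neto2, a membrane partner of Slc12a5, was highest at 0.61. Oxsr1, a kinase that Wnk kinases switch on, was at 0.44 and its relative Stk39 at 0.03. Of 10 pan-neuronal genes (median -0.16), Syt1 was lowest at -0.97, then the neurofilament gene Nefl at -0.90, and Elavl4 was highest at 0.13. The list of excitatory hypothalamic neurons ran from Slc17a6 at -4.29, Tac1 at -2.20 and Oxt at -1.01 to Sim1 at 0.23, Pomc at 0.28 and Cartpt at 0.33. The part of other neurons and of oligodendrocyte precursors in the Slc12a values was not tested.

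**Figure D3:**
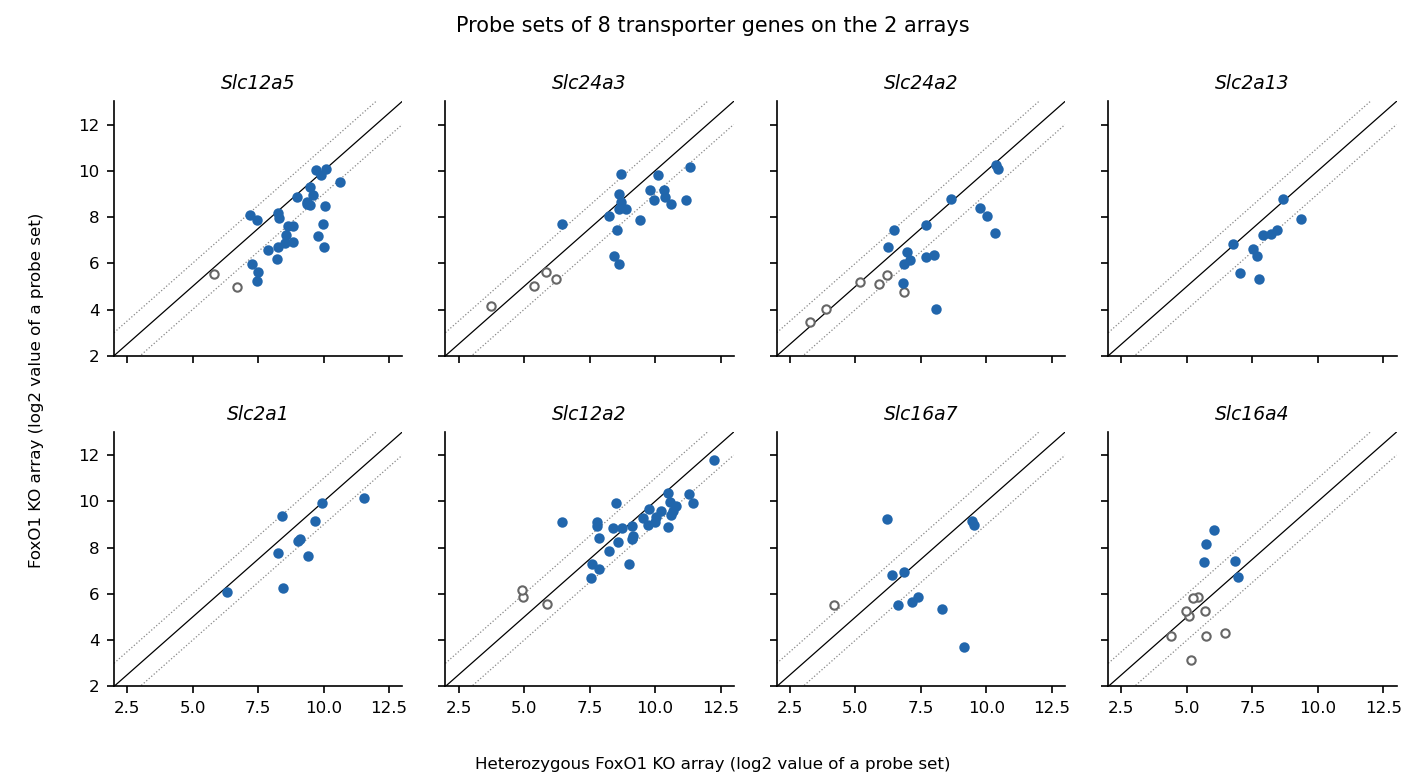
Each point is 1 probe set of the gene named above the panel, with its log2 value on the heterozygous array (horizontal) and the FoxO1 KO array (vertical); filled points reached the floor, the solid line is equality and dotted lines mark 2-fold. Slc12a5 has 26 of 29 filled points under the line of equality, while Slc16a4 has 4 of 5 above it and its open points mostly below.

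Sodium-calcium exchangers were below 0 in 8 of 9 genes and below -0.11 in 6 of 9. Within Slc8a, the exchangers of the surface membrane that need no potassium, the median was -0.40 over 3 genes and stayed below 0 in each alternative. Slc8a1, the widely expressed form, stood at 8.46 and 8.59 (-0.17, SD 0.46). Slc8a2, the brain form, stood at 6.81 in the KO sample and 7.63 in the heterozygous sample, a difference of -0.77 (SD 0.91), lower in 8 of 10 probe sets and led by 6.46 against 8.83. Slc8a3 was at -0.40 (SD 1.32), with probe sets from 7.53 against 10.66 to 8.22 against 5.82, and the 4 that passed a floor at the 75th percentile gave -1.23. The order of the 3 genes therefore changes with the floor.

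Within Slc24a, exchangers that also carry potassium, the median was -0.19, and the neuronal forms differed from each other. Slc24a3 stood at 8.66 in the KO sample and 8.88 in the heterozygous sample, a difference of -1.10 (2.15-fold lower, SD 1.11). Of its 19 probe sets 16 were lower and 10 were at least 2-fold lower, led by 5.96 against 8.62 and 8.73 against 11.20. A pair of probe sets went the other way by more than 2-fold, at 7.69 against 6.44 and 9.86 against 8.69. With no floor it stood at -0.61, with the mean over probe sets at -0.85 and after centring at -0.99, none of them past the rule. Slc24a2, the form of neurons and retinal cones, stood at 7.01 and 7.85, a difference of -0.91 (SD 1.30), lower in 13 of 16 probe sets. Its probe sets ranged from 4.02 against 8.07 to 7.45 against 6.45, and a bright one at 10.24 and 10.37 differed by -0.14. For Slc24a2, 2 of 16 probe sets were dim on the KO array, the lowest among them. The mean over probe sets placed it past the rule at -1.02, while the floor at the 75th percentile gave -0.39. Slc24a4, found in neurons and in enamel-forming cells, was at 0.26 (SD 0.24), higher in 8 of 11 probe sets, and above 0 in each alternative that evaluated it.

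Slc24a6, now named Slc8b1, is the exchanger of mitochondria and was at -0.32 (11 of 15 lower). The rod form Slc24a1 stood at -0.07 and the pigment cell form Slc24a5 at -0.01. Among the list of sodium and calcium pumps, which share this work by using ATP, 14 of 15 evaluated genes were below 0 and 11 below -0.11, with a median of -0.19 and none past the 2-fold rule. Its lowest was Atp2b3, a calcium pump of neurons, at -0.43, and the single gene above 0 was Atp1b3, a sodium pump subunit, at 0.08. Pan-neuronal genes had a similar median of -0.16, and the part of other neurons in these values was not tested.

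Bicarbonate carriers and sodium-proton exchangers held close to the median gene. Among 16 evaluated transporters of Slc4a and Slc9a, leaving the 3 adaptors aside, 12 were below 0 and 7 below -0.11, from -0.33 to 0.19, and none passed the 2-fold or the 1.5-fold rule. Slc4a10, a sodium-coupled carrier of neurons, stood at 8.59 and 8.66 with 14 of 27 probe sets lower. Its relative Slc4a8 was at -0.13 (SD 1.06), and Slc4a4, the carrier of astrocytes, stood at 7.48 on both arrays. Slc4a3, the chloride-bicarbonate exchanger of brain and heart, was lowest at -0.33 (levels 7.98 and 8.35, 20 of 31 probe sets lower). Wide SDs in this group, such as 1.05 for Slc4a10 and 1.04 for Slc4a4, show that probe sets of a gene disagreed even where the medians were near 0.

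The red cell anion exchanger Slc4a1 stood at -0.14, the ubiquitous Slc4a2 at -0.02, Slc4a5 at -0.12, Slc4a9 at -0.23 and Slc4a11 at 0.07. Among sodium-proton exchangers Slc9a8, of the Golgi, was highest at 0.19 (19 of 27 probe sets higher). Slc9a5, of neurons, was lowest at -0.32 (11 of 14 lower). Of these 14, 3 were dim on the KO array, which favours a lower value. The endosomal exchanger Slc9a9 had a median of -0.21 but an SD of 1.61, since one probe set stood at 4.56 against 8.92 and another at 7.57 against 5.60, and its sign changes between alternatives (-0.30 to 0.82). Slc9a7 was at 0.02, Slc9a2 at -0.06, the gut and kidney exchanger Slc9a3 at -3.29e-03 and Slc9a4 at 0.08. The family median of Slc9a, adaptors included, was -0.06, and it ran from -0.25 by the mean over probe sets to 0.05 with centring. All 3 adaptors were below -0.11, with Slc4a1ap at -0.33 and Slc9a3r2 at -0.32. Slc9a3r1 at -0.51 (SD 0.29) was lower in 7 of 7 probe sets. Of these 7, 2 were dim on the KO array and reached the floor through the heterozygous array alone, which favours a lower value. Over all 10 of its probe sets 8 were lower and 2 higher, and the difference was -0.40. Slc9a10, now Slc9c1, a sperm exchanger, was not evaluated, since 1 of its 30 probe sets reached the floor, at 6.80 against 6.40.

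Of 23 evaluated zinc carriers, 9 were above 0 and 14 below, and 8 were below -0.11, the median of all genes. Below -0.11 were 2 of 10 in Slc30a and 6 of 13 in Slc39a, a difference that was not tested. Export carriers of Slc30a had a median of 0.00 (from -0.02 to 0.11 over the alternatives) and import carriers of Slc39a one of -0.11, which centring moves to 0.00. Slc30a7, which fills the Golgi with zinc, was highest at 0.61 (SD 1.35), with levels of 8.11 and 7.60 and 9 of 12 probe sets higher. Its probe sets ran from 7.27 against 8.15 to 7.91 against 3.89. Of the 12, 2 were dim on the heterozygous array, the last of these among them. They reached the floor through the KO array alone, which favours a higher value. Over all 18 probe sets 15 were higher and the difference was 0.92, so unlike Slc16a4 its dim probe sets went the same way as the bright ones. Slc30a5, another Golgi carrier, was at 0.13 with 8 of 21 probe sets at least 2-fold higher, and its partner Slc30a6 at -0.04.

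Slc30a3, which loads zinc into glutamatergic synaptic vesicles, stood at 7.54 in the KO sample and 7.85 in the heterozygous sample (-0.26, SD 0.46, 7 of 9 probe sets lower). Slc30a1, the exporter of the surface membrane, stood at 7.68 and 7.80 with 4 of 8 probe sets on each side. The manganese exporter Slc30a10 was at 0.15 on 4 probe sets, the islet granule carrier Slc30a8 at 0.16, Slc30a2 at -0.02, Slc30a4 at -0.07 and Slc30a9 at -0.19.

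Of the import carriers, Slc39a3 was lowest at -0.51 (levels 7.61 and 7.87, 4 of 5 probe sets lower). Slc39a14, which brings in manganese, zinc and iron, was at -0.39 (levels 6.98 and 7.31, 14 of 17 lower), and Slc39a9 at -0.45 with an SD of 1.74. Slc39a7, which releases zinc from the endoplasmic reticulum, was lower in 11 of 13 probe sets at -0.21, and Slc39a10 in 12 of 16 at -0.10. The others lay between Slc39a8 at -0.23 and Slc39a1 at 0.09, through Slc39a6 at -0.13, Slc39a5 at -0.11, Slc39a13 at -0.08, Slc39a2 and Slc39a11 at 0.03 and Slc39a4 at 0.08. Slc39a12, the import carrier of astrocytes, was not evaluated, because 2 of its 15 probe sets reached the floor, at 8.22 against 7.75 and 6.22 against 7.34. Metallothioneins and the zinc sensor, which form the list of zinc binding and sensing, ran from Mt3 at -0.35 to Mt2 at 0.70, with 3 of 4 below 0 and none past the rule.

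Probe set by probe set, 1313 of the 1920 reached the floor, or 68.4% against 67.8% over all genes. Of these, 152 were at least 2-fold lower on the KO array, or 11.6%, and 89 at least 2-fold higher, or 6.78%. Over the probe sets of all genes the shares were 11.0% and 9.24%. The share of strongly lower probe sets was close to that over all genes and the share of strongly higher ones was smaller, with no test of either. Within a gene, probe sets scattered with a median SD of 0.65 for the members and 0.68 for all genes, larger than the difference of most transporter genes.

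**Figure D4:**
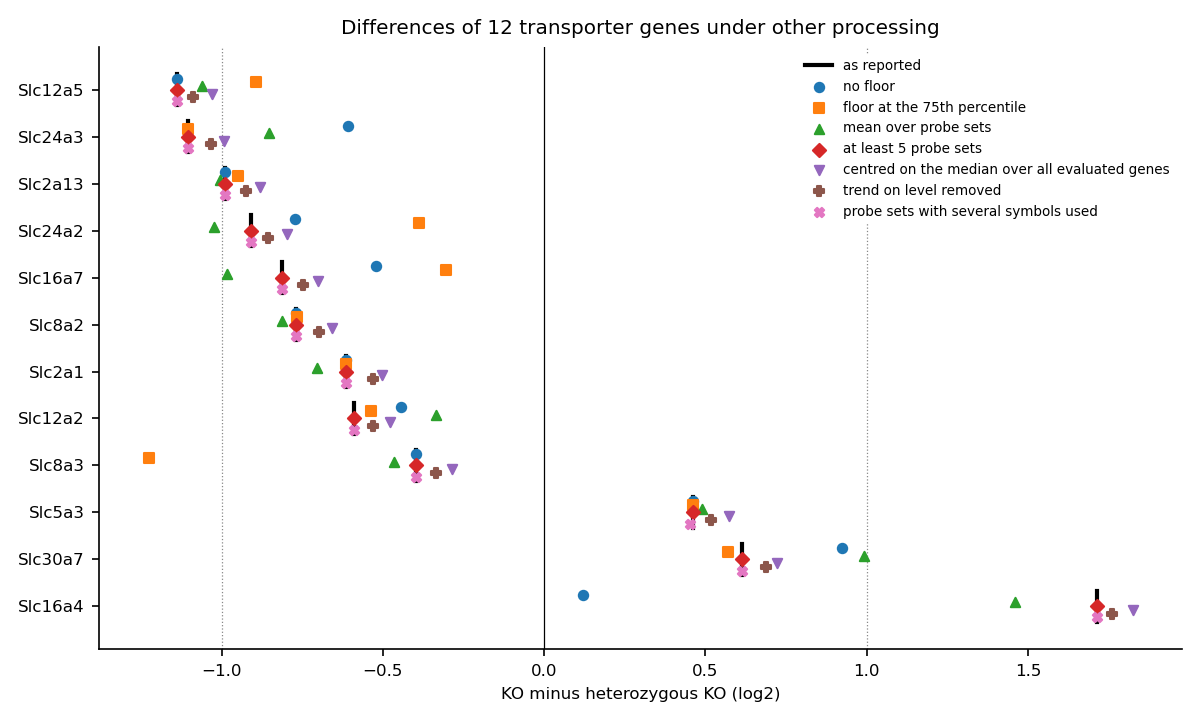
Differences of 12 transporter genes (log2, KO minus heterozygous KO) as reported (black bar) and under other processing (coloured marks), with dotted lines at 2-fold. Slc16a4 moves from 1.71 to 0.12 without the floor and Slc8a3 from -0.40 to -1.23 with a stricter one, while Slc2a13 and Slc5a3 stay near -0.99 and 0.46.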

How the data were processed

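The deposited table gives 1 log2 value per probe set and array; its log2 scale was read from the values. Per the submitters' processing notes, RMA and Partek were used, with no versions; for the build, the sources used here give none. Of 1235936 probe sets, 318760 had exactly 1 gene symbol in the platform annotation and were used. Values spanned 2.53 to 14.1, with a median of 5.85 on both arrays. Gene summaries and the 2-fold rule are given in the text; 97 member symbols were current in RefSeq (GRCm38.p6) and 2 were older ones.

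Named are members past the 2-fold rule, the highest and lowest of each family and 35 of 40 members listed by hand; the other 5 are not analysed here. Other names, and the motif search, were picked with the values known. Members and lists were chosen with earlier results of these data known. Alternatives were the mean over probe sets, a floor at the 75th percentile or none, at least 1 or 5 probe sets, centring, removal of the trend on level, probe sets of several symbols, a 1.5-fold rule and no agreement rule. The summary was run on simulated data with planted changes larger than the differences of Slc12a5 and Slc24a3. That run says nothing of differences near the 2-fold limit. Python 3.11.15, numpy 2.4.6, pandas 2.3.3 and matplotlib 3.10.9 were used.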

Additional observations from a re-analysis of the deposited data

How the results depend on the processing

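Without the floor 0 members were at least 2-fold higher and 1 lower (Slc12a5). With the floor at the 75th percentile 76 members were evaluated, and Slc16a4 was not among them. Of these 76, 0 were higher and 2 lower, Slc24a3 and Slc8a3, so Slc12a5 was lost and Slc8a3 gained. After centring 1 was lower. At 1.5-fold 2 were higher and 8 lower. By the mean over probe sets 3 were lower, Slc12a5, Slc24a2 and Slc2a13. The median over members moved from -0.12 to -0.011 with centring, which adds 0.11 to every gene, and ran from -0.14 to -0.06 in the other alternatives. No called member changed sign in the alternatives run, while 12 of the 42 named members, all under 0.3 in size, changed sign in at least 1. No paired analysis was possible because each genotype has 1 array. The number of arrays limits every value.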

Other observations

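The metal response element of the zinc sensor Mtf1 was searched in 1 spelling only, TGCGCNC on one strand and GNGCGCA on the other. Both strands of the same 250 bases before each start were searched, after the values were seen. This spelling was in 5 of 10 windows of Slc30a genes (Slc30a10, Slc30a4, Slc30a2, Slc30a3 and Slc30a5), or 50%. It was in 1 of 15 windows of Slc39a genes, or 6.67%, and in 12.5% of all windows. The median share of G and C was 64.4% in the Slc30a windows and 52.4% in all windows. The differences of these 5 export carriers ran from -0.26 to 0.15.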
